A study of Mus musculus with 167 samples.

Results

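The replication-dependent histone genes make up the bulk of the histone protein that packs newly copied DNA. They were taken as the genes whose GENCODE symbol begins with Hist1h, Hist2h, Hist3h or Hist4h and whose level reached a TPM (a length-corrected share of all transcripts) of 1 in at least 1 cell with 1000 or more genes detected. The rule found 59 genes among the 38924 rows of the table. The table has 62 such histone rows, of the 70 histone genes in the annotation. The other 3 rows, Hist1h1t, Hist1h2ba and Hist1h2aa, are testis-type histone genes and were listed at 0 in every column. Of the 59, 56 are coding genes and 3 are pseudogenes (Hist1h2aj, Hist1h2al and Hist3h2bb-ps). They comprise 19 genes of class H2A, 15 of H2B, 13 of H4, 7 of H3 and 5 of the linker class H1.

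RNA was measured in single lymphoid-primed multipotent progenitors (LMPPs), early blood progenitors with lymphoid and granulocyte-monocyte potential. They came from the marrow of wild-type female C57BL/6J mice aged 4 or 14 months and received no treatment per the labels. The sort kept cells without lineage markers or CD150 that carried Sca-1, c-Kit, CD34 and a high level of Flt3, and each cell was captured and amplified on a Fluidigm C1 chip. The table has 84 columns for each age, against 84 labelled cells of 4 months and 83 of 14 months. The 14-month columns carry the number 4 or 5, here called set 4 and set 5, a number the sources used here do not explain. Since animals are not named in the labels, an age counts as 1 sample: there is no replicate check, no test between the ages is possible, and age cannot be told apart from capture. Kept were 64 cells of 4 months, 29 of set 4 and 37 of set 5. They had a median of 3974.5, 3230 and 3376 genes detected, and sequencing depth is unknown because TPM sums to 1000000 in every column. Flt3 and Cd34 were detected in 100% and 89.1% of the 4-month cells and in 92.4% and 87.9% of the 14-month cells, and Slamf1, which encodes CD150, and Cd3e in none, which allows shares of up to 4.69% and 4.55%. Other genes of the sort followed it less closely. Kit was in 67.2% and 53.0% of cells. Sca-1 transcripts, from the gene Ly6a, were in 39.1% and 37.9%. Itgam, which encodes the lineage marker CD11b that the enrichment was meant to remove, was in 68.8% of the 4-month, 24.1% of the set 4 and 27.0% of the set 5 cells, and its part in the histone results was not tested. All binomial intervals below are exact Clopper-Pearson 95% intervals, the share that a count of 0 allows is 3 counts of the total, and both cover counting error only.

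Replication-dependent histone genes are switched on as cells enter S phase and silenced when replication ends. They lie in clusters, are transcribed in nuclear bodies organised by NPAT, and lack introns for the most part. Their mRNA is cut by the U7 machinery just past a conserved stem-loop that the stem-loop binding protein SLBP holds, so that it ends in that stem-loop and not in a poly(A) tail. A minority of these genes can also use a poly(A) site further downstream. The sources used here do not give the primer for the cDNA, so what share of tailless histone mRNA was captured was not tested.

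The stem-loop is shown first because it is what sets these transcripts apart. A 16-base run, with arms of 6 bases that pair, the left one starting with GG and ending with T, and a loop of 3 T and 1 base of any kind, was searched for on the transcript strand after the stop codon of each gene's GENCODE M21 transcripts (GRCm38, the build mm10). It was found in 39 of the 59 genes, 21 to 58 bases past the stop codon (median 31), in 6 spellings. Capitals mark the paired arms and small letters the loop.
Form of 23 genes of classes H1, H2A, H2B and H3, such as Hist1h2ap at chr13:21833029-21833044 (minus strand): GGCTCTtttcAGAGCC
Form of 7 H4 genes, such as Hist1h4d at chr13:23581950-23581965 (plus strand): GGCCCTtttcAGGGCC
Form of 4 genes: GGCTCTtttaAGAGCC
Form of 2 genes: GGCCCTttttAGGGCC
Form of 2 further genes: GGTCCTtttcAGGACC
Form of Hist2h2ac at chr3:96220418-96220433 (minus strand): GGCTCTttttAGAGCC

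The arms pair in all 6 spellings because the search required it. The annotated 3′ ends differ more than the stem-loops do. For 18 genes the annotation stops within 50 bases of the stem-loop, as for Hist1h2ap, whose transcript ends 3 bases past it. These 18 carried 56.3% of all histone TPM over the 130 kept cells. For 21 genes the annotated transcript runs 50 bases or more past the stem-loop, as for Hist1h4d, which goes on for 770 bases, and 13 of the 21 have AATAAA or ATTAAA in that stretch. These 21 carried 28.5% of the histone TPM. Detection did not separate these forms: the median gene was found in 11.2% of kept cells where the annotation is short and in 12.3% where it is extended. Another 9 genes have a 3′ UTR without these letters, among them Hist1h2bc and Hist1h1a, and carried 12.7%. The annotation of 8 genes ends at the stop codon and 3 have no stop codon annotated. No match says only that these letters are not in the annotated stretch.

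Promoters are shown for Hist1h4d, Hist1h2ap and Hist1h2ae, whose levels varied together from cell to cell, as given below. That of Hist1h2ae is the gap it shares with Hist1h2bg, and it is printed on the strand of Hist1h2bg. The sequences are the RefSeq promoter windows (GRCm38.p6), limited to bases upstream of every annotated histone transcript and read on the gene's own strand. Capitals mark the motifs searched on both strands, which were CCAAT (the box that the factor NF-Y binds, ATTGG on the other strand), the boxes TATAAA and also TATATA, and the octamer ATTTGCAT, bound by POU factors such as POU2F1. TATAAA and TATATA can overlap in longer runs.
Hist1h2bg, chr13:23571221-23571395, plus strand: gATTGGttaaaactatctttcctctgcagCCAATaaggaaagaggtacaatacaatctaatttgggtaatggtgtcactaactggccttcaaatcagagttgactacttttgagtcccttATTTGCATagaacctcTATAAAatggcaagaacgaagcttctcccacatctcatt
Hist1h2ap, chr13:21833508-21833725, minus strand: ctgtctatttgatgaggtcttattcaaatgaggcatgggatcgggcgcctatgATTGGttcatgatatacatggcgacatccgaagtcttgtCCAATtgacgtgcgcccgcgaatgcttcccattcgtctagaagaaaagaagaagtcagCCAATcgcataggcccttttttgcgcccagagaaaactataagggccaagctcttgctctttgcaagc
Hist1h4d, chr13:23581318-23581567, plus strand: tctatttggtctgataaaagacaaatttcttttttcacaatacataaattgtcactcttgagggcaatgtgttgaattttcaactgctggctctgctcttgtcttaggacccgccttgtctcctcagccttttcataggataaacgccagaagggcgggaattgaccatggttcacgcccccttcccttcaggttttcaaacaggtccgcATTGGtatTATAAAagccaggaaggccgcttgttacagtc

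The Hist1h2bg stretch is the whole 175-base gap between this H2B gene and the H2A gene Hist1h2ae, which starts at its left end and is read the other way. It holds 2 CCAAT boxes, 1 octamer and 1 TATAAA. The upstream stretch of Hist1h2ap holds 3 CCAAT boxes and that of Hist1h4d 1 CCAAT box close to a TATAAA. Promoter windows of 300 bases were matched for 52 of the 59 genes. CCAAT lay in 82.7% of them, against 37.9% of the windows of 27025 genes, TATAAA in 57.7% against 14.2%, TATATA in 23.1% against 5.94%, and the octamer in 17.3% against 1.75%. The classes differed in this. CCAAT was in every matched H1, H2A, H2B and H3 window and in 25% of the H4 windows. The octamer was in 35.3% of H2A and 25% of H2B windows and in no H1, H3 or H4 window. A match is a description of letters, not a site of binding.

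Nearly every 4-month cell held transcripts of the family, and most cells held few of its genes. At least 1 of the 59 genes reached TPM 1 in 63 of 64 cells of 4 months (98.4%, interval 91.6 to 99.96%). It did so in 26 of 29 cells of set 4 (89.7%) and 30 of 37 of set 5 (81.1%), which makes 84.8% of all 14-month cells (73.9 to 92.5%). The intervals of the ages overlapped. The number of histone genes detected per cell ran from 0 to 38 at 4 months (median 6.5), from 0 to 18 in set 4 (median 5) and from 0 to 21 in set 5 (median 4). Cells with 10 or more of the genes made up 34.4% at 4 months (22.9 to 47.3%) and 19.7% at 14 months (10.9 to 31.3%), again with overlapping intervals. These numbers moved with the number of genes detected of any kind: in 50 cells of each age matched on it, the median was 5 histone genes per cell at both ages.

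The TPM summed over the 59 genes varied over orders of magnitude within each set. It ran from 0 to 7078 TPM at 4 months with a median of 454, from 0 to 5835 in set 4 with a median of 259, and from 0 to 3710 in set 5 with a median of 443. The spread within each set was far wider than the gaps between the medians, and the sets overlapped over most of their range. In the matched cells the order of the medians turned, with 334 TPM for 4 months and 499.8 TPM for 14 months. A few cells carried much of the total: the 5 highest held 35.7% of it over the 64 cells of 4 months and 35.0% over the 66 cells of 14 months. Within the smaller sets the 5 highest held 63.9% over the 29 cells of set 4 and 48.7% over the 37 of set 5.

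**Figure D1:**
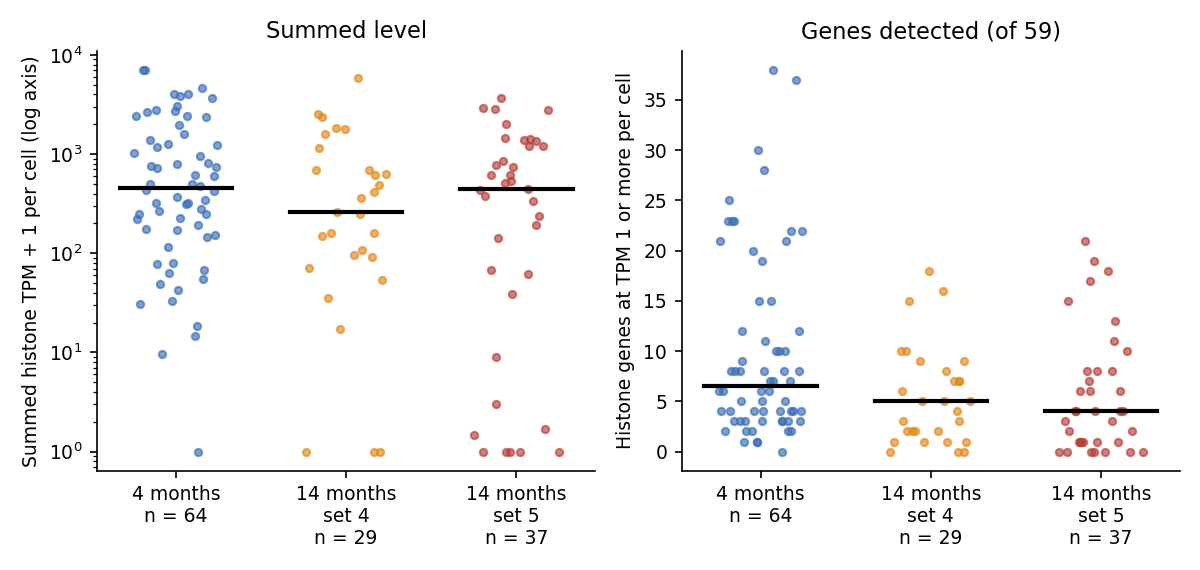
Each point is 1 kept cell of 4 months, set 4 or set 5 and black bars are medians: on the left the summed histone TPM plus 1 (log axis), on the right how many of the 59 histone genes were at TPM 1 or more. The sets overlap over most of their range, and the cells with more than 21 histone genes are all of 4 months.

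The core classes and the linker class were all present, in unequal amounts. H2A, which pairs with H2B on the outer part of the nucleosome, made up 61.4% of the histone TPM of 4-month cells, 55.4% of that of set 4 and 42.6% of that of set 5. H2B made up 18.1%, 28.4% and 30.2%, and H4, which joins H3 in the inner tetramer, 14.4%, 10.5% and 18.0%. H3 was at 2.79%, 0.90% and 0.72%, and H1, which binds the linker DNA, at 3.37%, 4.76% and 8.51%. These shares of transcripts do not follow the equal proportions in which the 4 core histones enter a nucleosome. The annotated H3 genes Hist1h3f and Hist1h3h have no row of values, and their part in the low H3 share was not tested. At least 1 H2A gene was found in 90.6% of the 4-month cells (80.7 to 96.5%) and in 71.2% of the 14-month cells (58.8 to 81.7%). At least 1 H1 gene was in 71.9% and 50% of cells, H2B in 71.9% and 56.1%, H4 in 67.2% and 56.1%, and H3 in 37.5% and 22.7%. Each class was in a smaller share of the 14-month cells, as were 81.4% of all measured genes, and the intervals of the ages overlapped. In the matched cells the H4 genes were in 64% at 4 months and 66% at 14 months. Of the other classes only groups of genes that encode the same protein were summed there. A group of 9 H2A genes was in 78% and 64%, one of 6 H2B genes in 34% and 24%, and one of 6 H3 genes in 28% and 26%. Hist1h2bc with Hist1h2be and Hist1h2bg was in 46% at both ages, and Hist2h2aa1 with Hist2h2aa2 in 44% at both. By position, the large Hist1 cluster on chromosome 13 has 46 of the genes and carried 90.6% of histone TPM at 4 months and 91.8% at 14 months. The Hist2 genes on chromosome 3 carried 8.17% and 6.49%.

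**Figure D2:**
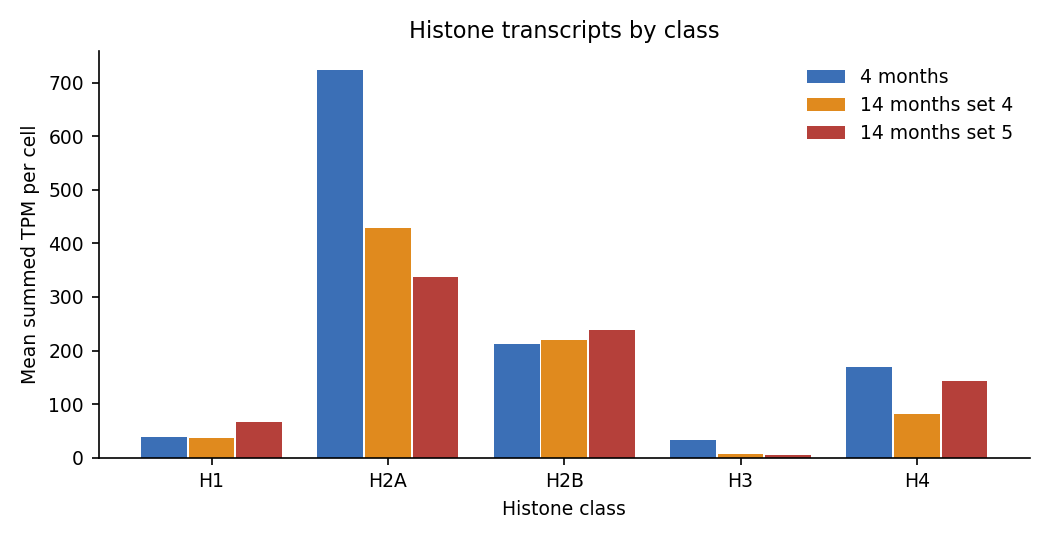
Bars give the TPM summed over the genes of each histone class, as a mean per kept cell, for 4 months, set 4 and set 5. H2A stands highest in each set, with a mean of 723 TPM for 4 months, 428 for set 4 and 338 for set 5. H2B lies between 213 and 239 TPM in all of them. A few cells carry much of these means: the median cell had 256, 44.05 and 36.75 TPM of H2A. For H2B the median cell had 53.9, 66.1 and 19.25 TPM.

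A gene counted as measured when the mean of its shares of cells at the ages was at least 10%, as did 9224 genes and 27 of the 59 histone genes. Of the other 32, 12 were in 0 of the 66 cells of 14 months, which allows a share of up to 4.55%. Since the family was limited to genes found in a kept cell, these 12 had to be present at 4 months, and nothing is read from their count. The difference between ages is the mean of log2(TPM+1) at 14 months minus that at 4 months, given relative to the median of all measured genes, which was −0.36 (−0.43 for set 4 and −0.34 for set 5). This scale understates the change of low genes. No histone gene was higher by 1 or more (background 3.37% of measured genes) and none was lower by 1 or more (background 5.08%). The relative differences ran from −0.99 to 0.47 with a median of −0.057, against 0 for all measured genes by construction, and 17 of 27 were below 0 (background 50%). In set 4 alone no gene was past 1 in either direction (backgrounds 4.59% and 6.75%) and the median was 0.019. In set 5 alone 1 gene, Hist1h2ao, was lower by more than 1 (background 6.56%), none was higher (background 6.63%) and the median was −0.052. Before the median was taken off, 25 of 27 had a lower mean at 14 months (background 77%), 26 in set 4 (background 77.9%) and 25 in set 5 (background 71.3%), and 27 of 27 were in a smaller share of cells (background 81.4%). The intervals of the shares overlapped between the ages for every one of them (background with intervals apart, 8.16%). In the cells matched on genes detected, 10 of 23 measured histone genes were in a smaller share of the 14-month cells, beside 44.2% of all measured genes.

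**Figure D3:**
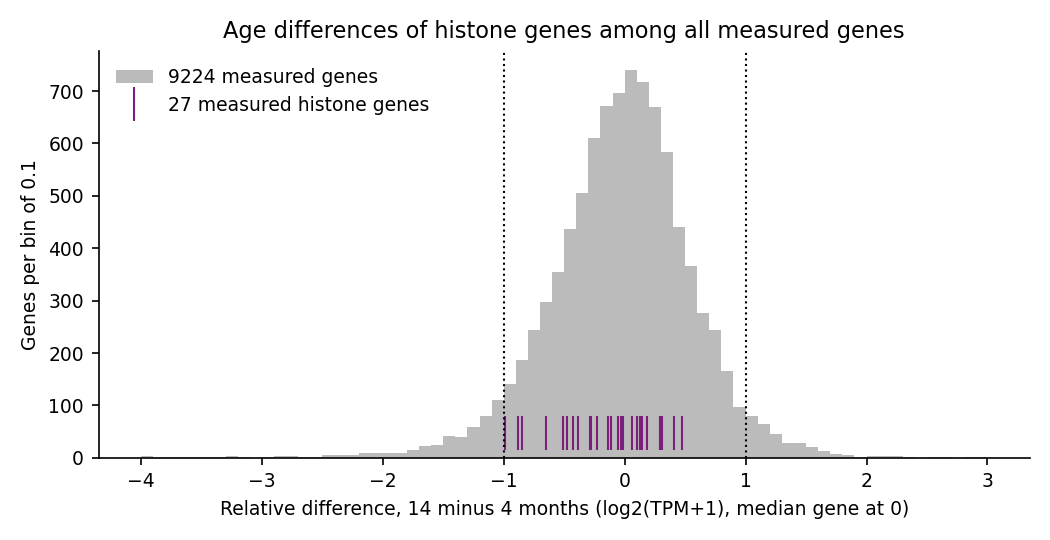
Grey bars count the 9224 measured genes by relative difference, 14 minus 4 months, in bins of 0.1 on the log2(TPM+1) scale with the median gene at 0, and purple ticks mark the 27 measured histone genes. All 27 lie between the dotted lines at −1 and 1, on both sides of 0.

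Among the H2A genes, Hist1h2ap was the most often detected gene of the family. It lies at chr13:21833026-21833507 as a single exon on the minus strand. Its level ran from 0 to 4748 TPM at 4 months (median 77.9), from 0 to 3021 TPM in set 4 (median 16.4) and from 0 to 1856 TPM in set 5 (median 0). It was found in 39 of 64 cells of 4 months (60.9%, 47.9 to 72.9%), in 51.7% of set 4 and in 48.6% of set 5. Cells without the transcript and cells with over 1000 TPM thus stood side by side in each set, and the sets overlapped. Its mean of log2(TPM+1) was 5.06 ± 4.41 at 4 months (SD over 64 cells) and 3.82 ± 4.16 at 14 months (SD over 66 cells). The relative difference was −0.88, and −0.73 and −0.97 in sets 4 and 5, while in the matched cells it turned to 0.44. By itself this gene supplied 39.3% of histone TPM at 4 months and 31.9% at 14 months.

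Of the next H2A genes, Hist2h2aa1 was in 51.6% of the 4-month cells, 31.0% of set 4 and 40.5% of set 5, with a relative difference of −0.65. Hist1h2ae was in 43.8%, 27.6% and 32.4%, with highest values of 1169 TPM at 4 months, 337 TPM in set 4 and 90.5 TPM in set 5. Its relative difference was −0.85, and −0.18 in the matched cells. Hist1h2ao was in 43.8%, 27.6% and 27.0% and had the lowest relative difference of the 27, −0.99, with −0.66 in set 4 and −1.21 in set 5. It stayed below 0 under each of the 16 other settings it was computed in, from −1.59 with no filter on columns to −0.63 with a pseudocount of 10. Hist2h2aa2 was in 21.9%, 13.8% and 16.2%, and Hist1h2ab in 17.2%, 20.7% and 10.8%, with relative differences of 0.06 and 0.11. Hist3h2a, at the far smaller cluster on chromosome 11, was in 18.8%, 13.8% and 8.11% with a relative difference of 0.41, but lies wholly inside the annotated gene Trim17 on the same strand, so its reads may be shared.

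Single H2A genes are hard to tell apart. Hist1h2ap shares 93.1% of its 50-base words with other annotated transcripts, all of these with Hist1h2ao, and every word of Hist2h2aa2 is also in Hist2h2aa1. Over the 59 genes the median was 52.3%, 30 had 50% or more of their words in another gene, and Hist1h1a, Hist1h1b and Hist2h2be had none. In addition 24 of the 59 overlap another annotated gene. How the deposited values split such reads between copies is an estimate, so values of single genes with near-identical copies are uncertain.

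Summing genes that encode the same protein avoids part of this. The 13 H4 genes encode 1 protein, 9 H2A genes (Hist1h2ab, ac, ad, ae, ag, ai, an, ao and ap) another, and the 7 H3 genes 2. The 9 H2A genes together reached TPM 1 in 82.8% of the 4-month cells, 65.5% of set 4 and 54.1% of set 5. Their summed mean of log2(TPM+1) was 6.57 ± 3.79 at 4 months (SD over 64 cells) and 4.26 ± 4.17 at 14 months (SD over 66 cells). The relative difference was −1.96, with −1.65 in set 4 and −2.17 in set 5. Of the histone proteins and genes, this was the one value past 1 over all kept cells. No background of summed genes was computed. A sum is found in more cells than its single genes, so the shares of single genes past 1 do not apply to it. In the matched cells it was −0.97, with 78% of 4-month and 64% of 14-month cells positive. The 13 H4 genes together were in 67.2%, 62.1% and 51.4% of cells. Their relative difference was −0.55, which turned to 0.36 in the matched cells. The group of 6 H2B genes that includes Hist1h2br and Hist1h2bj was at −0.96 (−0.62 matched), Hist1h2bc with Hist1h2be and Hist1h2bg at −0.04 (0.40 matched), and the pair Hist2h2aa1 and Hist2h2aa2 at −0.74 (−0.35 matched).

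The H2B genes were led by Hist1h2bc (chr13:23684199-23692908), whose annotation has an intron and a spliced transcript. It was in 48.4% of the 4-month cells, 27.6% of set 4 and 37.8% of set 5, with highest values of 1312, 1204 and 2870 TPM. Its mean was 81.5 TPM for 4 months and 115.5 TPM for 14 months, or 62.0 and 73.1 TPM without the highest cell of each age, while its mean log2(TPM+1) was 2.80 and 2.21. One cell thus accounts for much of the higher mean TPM. Hist1h2bg was in 37.5%, 27.6% and 21.6% with a relative difference of −0.48. Hist1h2br was in 26.6%, 13.8% and 8.11%, and Hist1h2bj in 23.4%, 10.3% and 13.5%, with relative differences of −0.29 and −0.28. The mean TPM of Hist1h2bj at 14 months, 37.7, became 9.40 without its highest cell of 1874 TPM.

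Among the H4 genes Hist1h4d stood first, as the second most detected gene of the family by mean share over the sets. It lies at chr13:23581598-23582735 on the plus strand and 10.2% of its 50-base words occur in other genes. Its level ran from 0 to 1058 TPM at 4 months, 522 TPM in set 4 and 764 TPM in set 5, and the median cell was at 0 in each. It was in 46.9%, 44.8% and 45.9% of cells, the least varying share among the leading genes. In the cells where it was found its median was 124 TPM for 4 months, 64.0 TPM for set 4 and 236 TPM for set 5, so that the 14-month sets lay on opposite sides of the 4-month value. Its relative difference, 0.47, was the highest of the 27 (0.20 in set 4, 0.71 in set 5) and reached 1.74 in the matched cells, the 1 value of a single histone gene above 1 under any setting. Hist1h4c was in 14 of 64 cells of 4 months (21.9%), in 4 of 37 of set 5 and in 0 of 29 of set 4, which allows a share of up to 10.3% by the limit of 3 counts and of 11.9% by the exact interval. Its relative difference was −0.51.

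H3 transcripts were sparse among the genes with a row of values, which leave out H3 genes such as Hist1h3f and Hist1h3h. Hist1h3e, the 1 measured H3 gene, was in 17.2% of the 4-month cells, 13.8% of set 4 and 5.41% of set 5, with a relative difference of 0.14. The other 6 H3 genes with a row were each in at most 10.9% of the 4-month cells. Among the linker genes, Hist1h1e was in 40.6%, 31.0% and 32.4% of cells, stood at −0.06 relative to all genes, and overlaps Hist1h2be over 496 bases. Hist1h1a was in 35.9%, 31.0% and 35.1% (relative difference 0.29) and Hist1h1b in 15.6%, 10.3% and 16.2% (0.31). Hist1h1c was in 31.2%, 10.3% and 16.2%, while its relative difference was −0.02. Where found, Hist1h1c had a median of 5.98 TPM for 4 months and 28.5 TPM for 14 months. These H1 genes were detected in many cells at low levels: the highest H1 value in any kept cell was 474 TPM, for Hist1h1b in set 5.

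**Figure D4:**
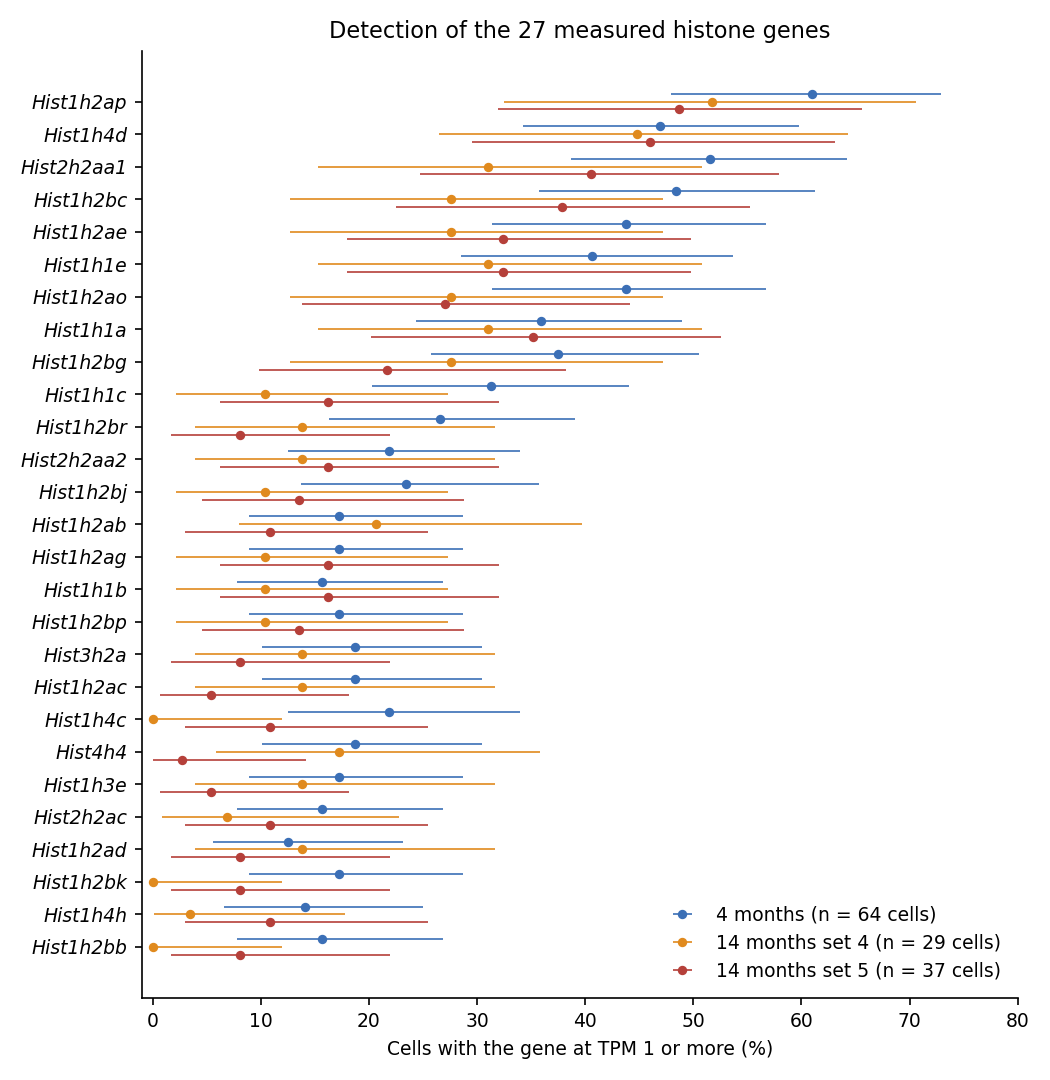
Points give the percent of kept cells with each of the 27 measured histone genes at TPM 1 or more in 4 months, set 4 and set 5, and lines are exact 95% binomial intervals. The 4-month point lies highest except for Hist1h2ab, Hist1h2ad and Hist1h1b, and its interval overlaps those of both 14-month sets except for Hist1h4c in set 4.

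Histone transcripts were then set against the phase of the cell cycle, using a list of 43 S phase genes and one of 52 G2/M genes. Cells of 1 set share chemistry and may differ in depth, which is unknown, so the correlations are descriptions. The number of histone genes per cell correlated with the mean log2(TPM+1) of the G2/M list with a Spearman rho of 0.66 over 64 cells of 4 months, 0.66 over 29 of set 4 and 0.76 over 37 of set 5. With the S phase list rho was lower in each set, at 0.44, 0.54 and 0.64. It was also high with the number of genes detected, at 0.51, 0.58 and 0.71. With that number held constant as a partial correlation, the G2/M values were 0.48, 0.40 and 0.55 and the S phase values 0.09, 0.16 and 0.19. The S phase list itself had rho of 0.76, 0.80 and 0.79 with that number and 0.74, 0.62 and 0.63 with the G2/M list. The low S phase values therefore do not show that histone genes fail to follow S phase. The 4-month cells were ordered by the G2/M list and split into 4 equal groups of 16. From the lowest group to the highest, the median cell had 4, 4, 7.5 and 21.5 histone genes and a summed level of 273, 204, 332 and 2391 TPM. The step thus came in the top group, where every cell had at least 7 histone genes. The genes detected of any kind went from a median of 3034.5 in the first of these groups to 5179.5 in the last. At 14 months the groups, of 16 or 17 cells, had 2, 1, 7 and 10 histone genes and 107, 20.1, 1288 and 744 TPM. Here the step came 1 group earlier and the summed level was not highest at the top. In groups ordered by the S phase list the median number of histone genes rose as well. It was 4, 5.5, 7.5 and 16 at 4 months and 2, 2, 7 and 8 at 14 months. The summed level was uneven, at 434, 244, 409 and 1094 TPM for 4 months and 336, 101, 764 and 510 TPM for 14 months. From the first of these groups to the last, the median of genes detected of any kind went from 3034.5 to 5073.5 at 4 months. At 14 months it went from 2353 to 4110.

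**Figure D5:**
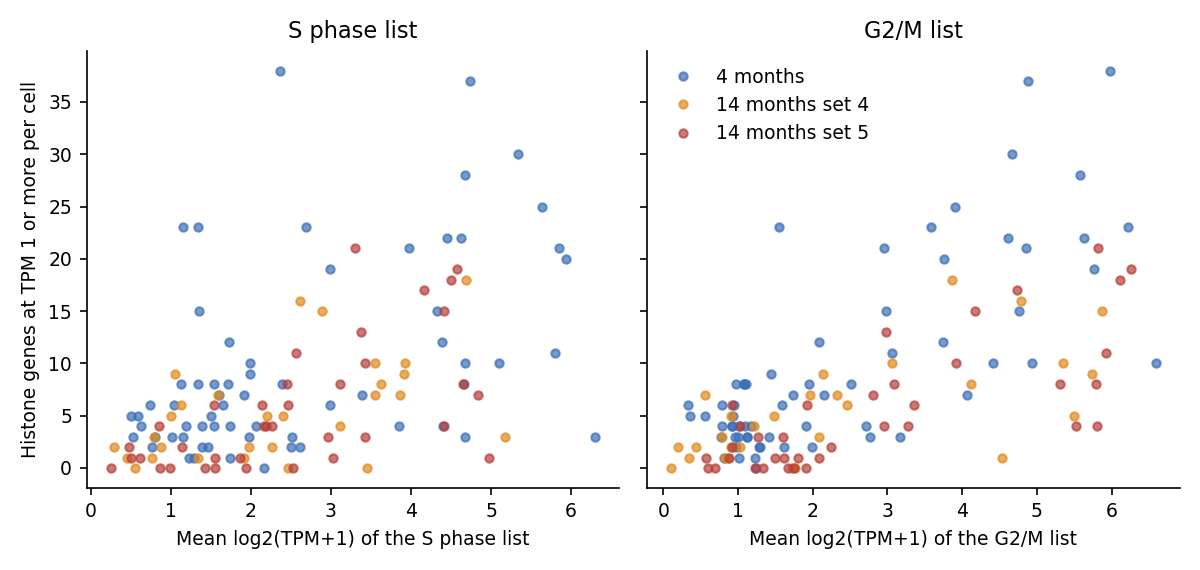
Each point is 1 kept cell of 4 months, set 4 or set 5, with the number of histone genes at TPM 1 or more against the mean log2(TPM+1) of the S phase list (left) and of the G2/M list (right). Cells with a G2/M mean under 1 all have 8 or fewer histone genes. Those with an S phase mean under 1 all have 6 or fewer, while 4-month cells at S phase means of 1.15 and 1.34 have 23.

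Single genes differed in how they followed the lists. Hist1h4d followed the G2/M list most closely, with rho of 0.70 at 4 months, 0.75 in set 4 and 0.76 in set 5, then Hist1h2ap (0.61, 0.58 and 0.75) and Hist1h2ae (0.60, 0.63 and 0.66). Hist1h2bc, whose annotated transcript is spliced, had 0.46 at 4 months but −0.01 and 0.16 in the 14-month sets. Hist1h1c stood at 0.20, 0.17 and 0.16. Hist3h2a and Hist4h4, the latter alone on chromosome 6, did not follow it, with 0.13, 0.14 and −0.22 and with −0.19, −0.24 and 0.04. Log2 levels of 4272 genes found in 20% or more of the cells of every set were compared with the summed histone level. Those most like it were Spc24, a kinetochore subunit (mean rho over the sets 0.53), H2afx, which encodes a histone variant (0.53), and Cdca3 (0.53). Ccna2, which encodes cyclin A2 (0.51), and Nusap1, a spindle protein (0.50), came next. The median of all 4272 genes was 0.11. The 33 ranked S phase genes had a median of 0.17, and the first of them, the histone chaperone gene Nasp, came at rank 14.

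Histone genes also varied with each other. Over the 351 pairs of measured histone genes the mean rho over the sets had a median of 0.23 and was above 0 in 313. Pairs of other genes were not computed, so this count is not read as a trait of the family. The part of the number of genes detected and of reads shared between copies was not tested. Hist1h4d and Hist1h2ap were the closest pair (0.75), with both in 52 of the 80 cells that had either, and belong to different classes. Hist1h2ae was next to each of them, at 0.70 with Hist1h2ap and 0.69 with Hist1h4d. Divergent pairs of an H2A and an H2B gene, which start 172 to 301 bases apart and point away from each other, number 12 among the 59 genes. The pair with the printed gap, Hist1h2ae and Hist1h2bg, was in 48 and 40 of 130 kept cells and both were in 29, with rho of 0.57 at 4 months, 0.27 in set 4 and 0.48 in set 5. Hist1h2ap and Hist1h2br were in 72 and 24 cells and both in 19, with 0.46, 0.30 and 0.46. Hist1h2ag and Hist1h2bj had 0.42, 0.25 and 0.31. Other pairs did not go together in every set. Hist1h2ac and Hist1h2bc, both in 12 cells, had 0.12, 0.10 and −0.01. Hist1h2ak and Hist1h2bn had 0.45, −0.04 and −0.04. In set 5 rho was −0.05 for Hist1h2ah and Hist1h2bk and −0.07 for Hist1h2an and Hist1h2bp. At 4 months rho was above 0 for every pair but Hist1h2bl and Hist1h2ai (−0.04). Several pairs have no rho in set 4 or set 5. Over the 12 pairs the number of cells with both ran from 0 to 29.

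The genes that make, process and handle histone mRNA were measured in nearly every case. For 3′ processing, 19 of 21 genes were measured, of which 1 was higher by 1 or more at 14 months and 0 were lower (backgrounds 3.37% and 5.08%). The median was −0.28, but 0.06 in set 4 and −0.16 in set 5. The higher one was Snrpe (1.57, and 2.47 in the cells matched on genes detected), a core snRNP protein shared with splicing. Slbp itself was in 92.2% of the 4-month and 83.3% of the 14-month cells. Its relative difference of −0.62 differed between the sets (−1.58 in set 4, 0.17 in set 5) and was −0.03 in the matched cells. Sympk, the scaffold of the cleavage complex, was at −0.77, and Cpsf4 at 0.69. Of 12 measured genes for the histone locus body and histone transcription (14 listed), 1 was higher, Nfyb (1.18), which encodes a subunit of the CCAAT-binding NF-Y, and 1 lower, Cdk2 (−1.26), the kinase that activates NPAT, in 57.8% and 16.7% of cells. In the matched cells Nfyb was at 1.94 and Cdk2 at −1.32. The list had a median of 0.11, with 0.21 in set 4 and 0.11 in set 5. Npat stood at 0.77, Casp8ap2 at 0.85 and Nfyc, another NF-Y subunit, at −0.89.

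For histone mRNA decay, 11 of 11 genes were measured, 0 higher and 1 lower (backgrounds 3.37% and 5.08%), with a median of −0.28. In set 4 alone 2 were higher and 2 lower (backgrounds 4.59% and 6.75%), with a median of −0.39. In set 5 alone 0 were higher and 1 lower (backgrounds 6.63% and 6.56%), with a median of −0.16. The lower one was Zcchc11 (−1.14), a uridylyl transferase. Upf1, the helicase that starts decay at the end of replication, was at −0.91, Pnrc2 at 0.70 and Lsm4 at 0.57. The sets differed in sign for Lsm4, with 1.53 in set 4 and −0.16 in set 5. Among 20 chaperones and importers, all measured, 4 were higher and 2 lower (backgrounds 3.37% and 5.08%). The median was 0.37, with 0.49 in set 4 and 0.34 in set 5. The ends of this list were Atrx (1.78) and Npm1 (1.46), and Ssrp1 (−1.10), a subunit of the FACT complex, and the importin Ipo4 (−1.03). In the matched cells these were at 2.33, 1.55, −0.64 and −1.03. Nasp was at 0.05, and at 0.82 in the matched cells. The replication-independent variants are made outside S phase as well and carry poly(A) tails as a rule. Of these, 9 of 11 were measured, with 2 higher and 1 lower against the backgrounds of 3.37% and 5.08%. The median was −0.07, with 0.34 in set 4 and −0.11 in set 5. H2afz, the gene of H2A.Z, was at 2.27 and H3f3b, which encodes H3.3, at 1.72, each past 1 in both sets. H2afv was at −1.01 (−0.21 in set 4, −1.60 in set 5) and H2afj at −0.62, with 0.34 in set 4 and −1.33 in set 5. In the matched cells H2afz was at 3.19, H3f3b at 1.75, H2afv at −0.11 and H2afj at −0.34.

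The cell cycle lists were compared between the ages in the same way. Of 43 S phase genes, all measured, 2 were higher and 1 lower, near the backgrounds of 3.37% and 5.08%. The median was 0.14, with 0.24 in set 4 and 0.20 in set 5. Prim1, a primase subunit, was at 1.58, Tipin at 1.10 and Atad2 at −0.71. In the matched cells Prim1 and Tipin were each at 2.82 and Atad2 at −0.44. Of 51 measured G2/M genes (52 listed), 9 were higher and 0 lower against the same backgrounds, with a median of 0.69 (0.42 in set 4, 0.85 in set 5). The sets gave unlike counts. In set 5 alone 18 were higher and 0 lower (backgrounds 6.63% and 6.56%), and in set 4 alone 2 were higher and 1 lower (backgrounds 4.59% and 6.75%). Ect2 was at 1.47 and Cks1b at 1.46, the latter at −0.23 in set 4 and 2.83 in set 5, while Hjurp was at −0.79 and Tpx2 at −0.49. In the matched cells Ect2 was at 2.15, Cks1b at 3.18, Hjurp at −0.09 and Tpx2 at 0.22. Within each set the number of histone genes per cell ran with the G2/M list. Between the ages the measured histone genes had a median of −0.057 where that list had 0.69. A correlation over cells and a median over genes are unlike measures, and how the 2 relate was not tested.

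Markers of other cell types were checked over the kept cells. Of 5 B cell markers, 3 were detected at 4 months and 0 at 14 months, and the defining gene Pax5 was at 0 in every kept cell. Of 5 neutrophil markers 2 were detected at 4 months and 3 at 14 months, and their sum reached 364930 TPM in 1 cell of set 5, where the fixed total leaves less for other genes. Of 6 erythroid markers 3 and 2 were detected, with Gata1 and Epor at 0. Other lists held markers found in many cells. Lyz2 of the monocyte list was in 64.1% of 4-month and 56.1% of 14-month cells, and Csf1r in 26.6% and 6.06%. Vwf of the megakaryocyte list was in 76.6% and 47.0%, and Pecam1 of the stromal and endothelial list in 45.3% and 40.9%. Gp1bb, Col1a1 and Cdh5 of these lists were at 0. The monocyte sum reached 11694 TPM in set 5. The summed level of each list had a median of 0 to 211 TPM in each set, the highest being the T and NK cell list in set 4. There Nkg7 was the gene detected most, while Cd3e, Cd3g and Trbc1 were at 0. The rho of each list with the summed histone level lay between −0.41 and 0.31 over the sets. Their part in the histone results was not tested.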

How the data were processed

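The authors deposited 1 table of TPM values, 38924 genes in 168 columns, 1 column per cell. Bowtie2 2.2.0, RSEM 1.2.12 and the build mm10 were used, per the submitters' processing notes. The sources used here do not give their annotation. Symbols from GENCODE M21 matched 37607 rows and 1317 had none. TPM keeps no depth, and no count model was run. Kept columns had 1000 or more genes at TPM 1 or more. Detection was TPM 1, the pseudocount 1, and the 2 number sets of 14-month columns were kept apart. Unused per-sample columns numbered 0. Doublets were not called. The calculation was tested on shuffled columns of these data with known differences put in. The genes changed there were often detected ones, so recovery for sparse genes was not tested.

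Members, lists and settings were chosen with earlier results of these data known. Named are histone genes in 20% or more of cells of any set (15 genes), the 4 highest and 4 lowest relative differences, the 2 highest and 2 lowest genes of each list with Slbp, Npat, Nasp and Casp8ap2, and the 5 most alike genes. Other genes are named where a count or class called for it, after their values were seen. Some genes that these rules take are not reported here. Shared words, stem-loops and divergent pairs come from GENCODE transcripts, and the proteins compared were translated from them. Software was Python 3.11.15 with matplotlib 3.10.9, scipy 1.17.1, pandas 2.3.3 and numpy 2.4.6.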

Additional observations from a re-analysis of the deposited data

Results flagged for a closer look

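The columns left out for having fewer than 1000 genes detected also held histone transcripts. At 4 months 12 of 20 such columns (60%, exact Clopper-Pearson 95% interval 36.1 to 80.9%) had at least 1 of the 59 genes at TPM 1 or more, with at most 4 of them in a column. At 14 months 4 of 18 did (22.2%, interval 6.41 to 47.6%), with at most 2. Of these 18 columns 16 belonged to set 4, among them all 4 with a histone gene, and 2 to set 5. They are given because these columns lie outside every comparison. The highest summed histone level in a left-out column was 3863 TPM for 4 months and 6242 TPM for 14 months.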

How the results depend on the processing

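Results were recomputed under 18 settings. Chosen after seeing the data were 2 of them, the removal of 8 columns over 50% mitochondrial or with 1 nuclear gene over 20% of TPM and the joint use of matched cells and summed proteins, and also the correlations with the cell cycle lists under every setting. Of 168 summary values 138 stayed within their limits, which were the exact 95% interval for a share, the matching interval over cells for a median level or number, 1 SD between the sets for a relative difference or correlation, and a factor of 1.5 for a count of genes. These limits are wide: with no filter on columns the median number of histone genes per cell, 6.5 and 4 in the report, was 4 and 2, and the median summed level at 14 months was 215 TPM in place of 399 TPM. The median relative differences within their limit ran from −0.12 to 0.0075. The cause of each change was not tested unless fewer genes or cells make it. The count of measured histone genes lower by 1 or more, 0 in the report, was 1 with detection at any TPM above 0, with no filter on columns, after rescaling without mitochondrial transcripts or to protein-coding nuclear genes, in set 5 only, without the cell of highest summed level of each age, and with members of the same protein summed. It was 2 with a pseudocount of 0.1 and after quantile normalization, and 4 with no filter on low values. The higher count was 1 in the matched cells. The number of measured genes, 27, was 17 with detection at TPM 10, 59 with no filter on low values, 9 at a minimum share of 30%, 15 with proteins summed, and 13 with proteins summed in matched cells. Cells with at least 1 gene made up 89.3% and 71.4% of 4- and 14-month columns with no filter on columns, and 92.7% at 14 months in columns of 2000 or more genes. The median relative difference was −0.15 with no filter on columns, −0.18 with 2000 genes, −0.28 with a pseudocount of 0.1, −0.14 after quantile normalization, −0.31 with no filter on low values, −0.34 at 30% and 0.024 with set 4 only. The rho with the S phase list, on average 0.54 over the sets, was 0.65 with no filter on columns, 0.42 after quantile normalization, 0.44 in matched cells and 0.41 with proteins also summed. The rho with the G2/M list stayed between 0.63 and 0.73. Of the genes past 1 in either direction, Cks1b alone changed sign, to −0.24 with set 4 only. Zcchc11, Ssrp1 and H2afv, lower by more than 1 over all kept cells, were within 1 in the matched cells. Quantile normalization moved the median of all measured genes by 0.27 and matching by 0.35, and differences are relative to it.

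No paired analysis was possible because cell numbers in the labels name single cells, each age is 1 sample, and no value comes from a fit. Unknown depth leaves low detection and true absence indistinguishable for the sparse genes.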
